A study of Mus musculus with 2 samples.

Results

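The Zfp zinc finger genes were examined in nascent RNA of mouse bone marrow-derived macrophages (BMDMs). They were chosen as the genes whose name in the annotated transcript lists begins with Zfp and a digit, and the rule used no measured value. By this rule 238 of the 11054 gene names in either library were Zfp genes, 209 of 9827 in control and 214 of 10106 after interleukin-4 (IL-4). The cells came from wild-type (WT) mice of 8 to 12 weeks and were grown for 6 days with L929 supernatant, which carries the macrophage growth factor M-CSF. One group was left as control and the other received IL-4, the cytokine of alternative macrophage polarization, at 20 ng/ml for 1 hr. Both groups share the differentiation and differ only by IL-4 in their labels. The assay was GRO-seq (global run-on sequencing), in which engaged polymerases extend their transcripts with a labelled nucleotide. Run-on reactions were made in duplicate and pooled into 1 library per condition, so no value below has a replicate error, and no test between conditions was possible.

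Zfp is the mouse symbol for zinc finger proteins that received a number and no other name, so the group joins proteins of different kinds. Most members carry arrays of C2H2 fingers, small zinc-binding folds of which each reads a few bases of DNA. Many of these also carry a KRAB box, through which they recruit the corepressor TRIM28 and the histone methyltransferase SETDB1 and silence retroelements, and they lie in clusters of recently duplicated genes. A small branch, Zfp36 (tristetraprolin), Zfp36l1 and Zfp36l2, has CCCH fingers that bind AU-rich elements of mRNAs and shorten their life, and tristetraprolin is best known in macrophages for limiting TNF.

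Each library was a list of called transcripts, strand-specific segments with a position, a score rounded to 1 decimal and the name of the gene with the nearest promoter. A gene's value was the highest score among the segments with its name. Ratios of IL-4 to control are log2 values from which the median of the 8879 genes seen in both libraries was subtracted (-0.38), and a gene was called at a 2-fold difference from that median. Other definitions of the gene value, used below, were each centred on their own median. For the segment nearest the start of the gene this left the log2 ratios unchanged, so they are not shifted upward as the main ratios are. The rounding range is the range of ratios left by the rounding of both scores, and is not a replicate error. Macrophage markers were present, with 10 of 12 listed names found. The names not found were Spi1 and Adgre1, the latter present under its older name Emr1. Names of 1 of 5 T cell, 1 of 4 B cell, 0 of 4 fibroblast and 0 of 3 erythroid markers were found. Of the 3 endothelial markers only Pecam1 was found, at 0.1 in control and 0.7 after IL-4. Of 7 listed IL-4 response genes 5 were found. Socs1 scored 0.3 in control and 2.5 after IL-4, and Mrc1 2.7 and 13.1. Cish (0.6), Egr2 (0.4) and Arg1 (0.2) had a value after IL-4 only, and Retnla and Chil3 were not found.

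The promoter sequences of 196 of the 238 Zfp genes were in the RefSeq table (GRCm38.p6, the build of the files), and 6 are printed here because their genes carry the results below. Zfp36 and Zfp36l1 are the CCCH genes with an entry, Zfp275 and Zfp146 had higher values and Zfp455 a lower one from a segment at the start of the gene, and Zfp91 holds the spacing preferred by STAT6, the factor that IL-4 activates. Each sequence is the 250 bases before the RefSeq start, 5′ to 3′ on the gene's strand, and capitals mark matches to TTC and GAA separated by 4 bases of any kind (the STAT6 spacing, called TTC-N4-GAA below) or by 3 bases (the spacing of other STATs, TTC-N3-GAA).

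Zfp36 (chr7:28379229-28379478, minus strand): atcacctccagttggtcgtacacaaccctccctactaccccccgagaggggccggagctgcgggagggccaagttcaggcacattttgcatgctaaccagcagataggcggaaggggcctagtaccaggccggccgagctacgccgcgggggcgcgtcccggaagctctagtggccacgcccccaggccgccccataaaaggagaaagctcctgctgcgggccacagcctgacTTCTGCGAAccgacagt

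Zfp36l1 (chr12:80113014-80113263, minus strand): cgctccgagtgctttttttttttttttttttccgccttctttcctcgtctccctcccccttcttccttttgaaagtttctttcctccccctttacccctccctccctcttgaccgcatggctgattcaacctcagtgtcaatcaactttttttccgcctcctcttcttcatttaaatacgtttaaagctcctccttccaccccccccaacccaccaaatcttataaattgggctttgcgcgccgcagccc

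Zfp275 (chrX:73342370-73342619, plus strand): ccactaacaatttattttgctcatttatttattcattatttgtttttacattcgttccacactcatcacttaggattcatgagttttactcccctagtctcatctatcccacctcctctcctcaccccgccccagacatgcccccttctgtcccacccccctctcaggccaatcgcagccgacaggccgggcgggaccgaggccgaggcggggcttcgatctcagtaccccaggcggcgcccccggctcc

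Zfp146 (chr7:30169742-30169991, minus strand): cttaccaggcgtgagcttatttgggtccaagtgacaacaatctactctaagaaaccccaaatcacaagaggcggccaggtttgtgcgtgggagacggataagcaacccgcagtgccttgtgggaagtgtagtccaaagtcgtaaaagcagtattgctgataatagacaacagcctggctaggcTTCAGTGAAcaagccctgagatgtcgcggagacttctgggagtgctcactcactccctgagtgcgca

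Zfp455 (chr13:67194256-67194505, plus strand): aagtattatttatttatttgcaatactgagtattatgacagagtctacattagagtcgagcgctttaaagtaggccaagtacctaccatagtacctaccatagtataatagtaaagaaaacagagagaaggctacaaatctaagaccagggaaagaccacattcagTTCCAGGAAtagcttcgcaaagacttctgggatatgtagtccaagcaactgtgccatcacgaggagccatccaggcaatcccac

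Zfp91 (chr19:12796124-12796373, minus strand): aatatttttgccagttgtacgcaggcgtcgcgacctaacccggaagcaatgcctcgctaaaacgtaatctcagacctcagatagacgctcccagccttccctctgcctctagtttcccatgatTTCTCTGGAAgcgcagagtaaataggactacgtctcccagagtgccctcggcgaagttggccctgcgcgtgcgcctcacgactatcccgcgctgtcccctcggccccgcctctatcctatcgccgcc

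In these stretches TTC-N4-GAA occurs once in Zfp91, beginning 127 bases before the start. TTC-N3-GAA occurs in Zfp36, Zfp146 and Zfp455, beginning 17, 67 and 84 bases before it. A match is a description of letters and not a binding site. The RefSeq start of Zfp36 lies inside the annotated span of the gene, whose longest model begins further upstream.

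Among the names found in at least 1 library, Zfp genes and all genes divided between the libraries in similar shares, which are not shares of all annotated genes. A value in both libraries was present for 185 Zfp genes, 77.7% of the 238 (80.3% of all gene names). Another 24 had a segment in control only, 10.1% (8.58% of all names), and 29 after IL-4 only, 12.2% (11.1% of all names). Their values were low. The median Zfp value was 0.4 in control and 0.3 after IL-4, against 0.5 and 0.3 over all genes. In control 22 of 209 Zfp genes (10.5%) reached a score of 1, while 20.0% of all genes did, and after IL-4 12 of 214 (5.61%) and 12.5% did. With so many values between 0.1 and 0.5, the rounding alone leaves wide ranges for most of these genes. In each library 96 Zfp genes had a single called segment.

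After IL-4, 13 of the 185 Zfp genes had a value at least 2-fold higher (7.03%; 8.06% of all genes) and 14 a value at least 2-fold lower (7.57%; 8.62% of all genes). Both shares were near those of all genes. Over the whole rounding range 5 Zfp genes remained higher (2.7%; 3.67% of all genes) and 3 lower (1.62%; 3.85% of all genes). Of the 125 Zfp genes that reached a library's median (0.5 in control, 0.3 after IL-4) in 1 library or both, 7 were higher (8.25% of all such genes) and 7 lower (8.31%), which is 5.6% each. The median centred ratio of the Zfp genes was -0.11 (quartiles -0.62 and 0.38), with 81 genes above 0 and 104 below, beside a median of 0 (quartiles -0.51 and 0.38) over all genes. The standard deviation over genes was 0.75 for the Zfp genes and 0.78 for all genes.

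**Figure D1:**
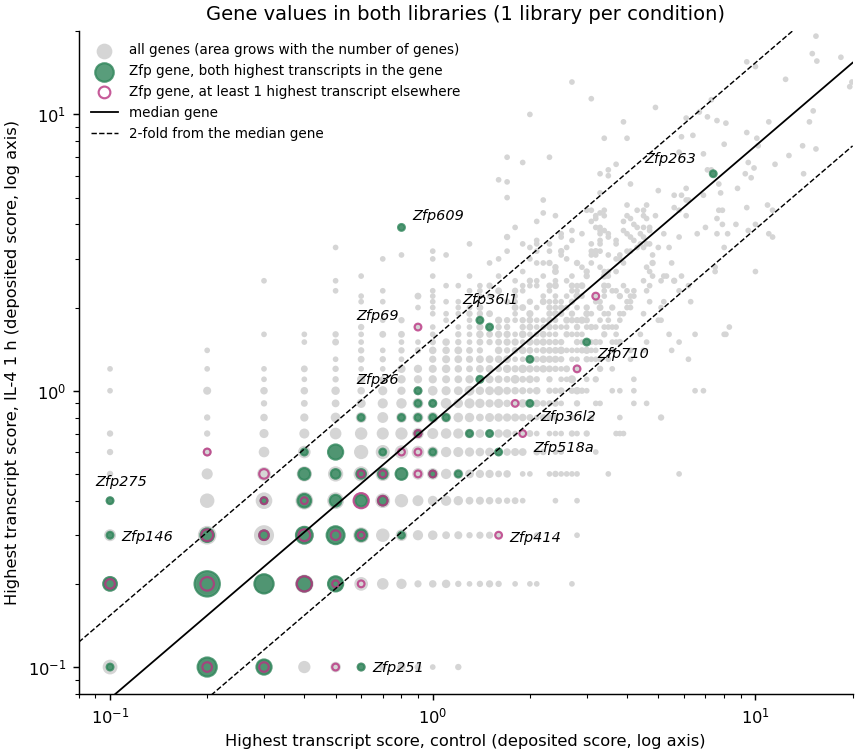
Highest transcript score of each gene in control (x axis) and after 1 hr of IL-4 (y axis), both on log axes that end at 20. Grey points are all genes, filled green points are Zfp genes whose highest transcripts lie in the gene in both libraries, and open points are Zfp genes with at least 1 highest transcript elsewhere, with larger points for more genes at the same values. Most Zfp genes lie between 0.1 and 1 and inside the dashed 2-fold lines, Zfp609 lies far above them at 0.8 and 3.9, and Zfp263 is the highest at 7.4 and 6.1.

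**Figure D2:**
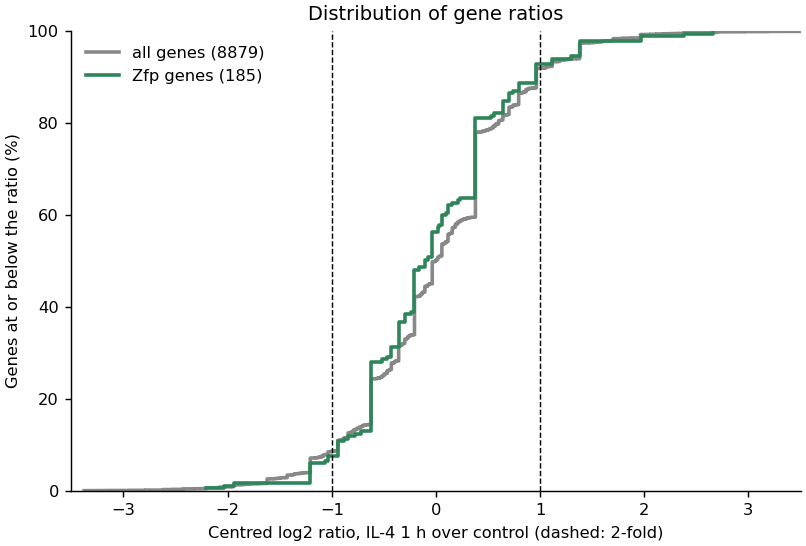
Cumulative share of genes (y axis, %) by centred log2 ratio of IL-4 over control (x axis) for the 185 Zfp genes (green) and all 8879 genes (grey), with dashed lines at a 2-fold difference. The curves have a median of -0.11 and 0 and both cross the 2-fold lines with under 10% of genes outside on each side.

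Because a segment is named for the nearest promoter, the segment that decided a gene's value was not always in that gene. It lay in the gene of that name, on its strand, for 157 of 209 Zfp genes in control and 165 of 214 after IL-4. In control it lay on the strand of another gene for 23, in no gene for 21 and on the opposite strand of its own gene for 8, and after IL-4 for 20, 20 and 9. Both deciding segments lay in the gene for 131 of the 185 Zfp genes, of which 7 were higher and 8 lower (median centred ratio -0.04). Among the other 54 there were 6 higher and 6 lower (median -0.21), where over all genes 8.06% were higher and 8.62% lower. It is therefore stated below where a deciding segment of a Zfp gene given with its value lay elsewhere. No location is given for genes that are not Zfp genes.

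The CCCH genes did not move in one direction. Zfp36 (ENSMUSG00000044786.6, chr7:28376784-28380253, minus strand in mm10) scored 0.9 and 1.0 in control and after IL-4, respectively, for a ratio of 0.53 (rounding range 0.38 to 0.68). Zfp36l1 (chr12:80107754-80113013, minus strand) had 1.4 in control and 1.8 after IL-4, a ratio of 0.74 (0.65 to 0.83). Zfp36l2 (chr17:84183931-84187947, minus strand) had 2.0 in control and 0.9 after IL-4, a ratio of -0.77 (-0.89 to -0.66). None of the 3 passed the 2-fold call on the highest score, and all 6 deciding segments lay in the gene on its strand. Zfp36l3 was not found in either library.

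The segments along each CCCH gene showed the same split, with the smallest differences in Zfp36. On the strand of Zfp36l2, the segment over exon 1, beginning 12 bp into the gene, scored 2.0 in control and 0.9 after IL-4. The segments over exon 2 scored 0.8 and 2.0 in control and 0.3 and 0.6 after IL-4, and the one past the end of the gene 1.3 and 0.4. A control segment of 0.7 over the 3′ UTR overlapped none after IL-4. The antisense segment in front of the promoter, which is the usual partner of a divergent promoter, scored 0.9 in control and 0.4 after IL-4. Each of these positions had the lower score after IL-4. The sum of the scores named for Zfp36l2 was 8.7 and 3.2, for a ratio of -1.15, past 2-fold. Zfp36l1 began with a segment of 824 and 1020 bp that scored 1.4 in control and 1.8 after IL-4, and its gene-strand segments covered 2714 and 4243 bp with a mean score of 0.77 and 0.98. In Zfp36 the covered length was 1900 bp and 2250 bp, with a mean score of 0.79 and 0.81. The sum of the scores named for Zfp36 was 3.4 in both libraries (ratio 0.29), and for Zfp36l1 4.8 and 6.2 (0.66). By score times length the ratios were 0.23 for Zfp36 and 0.97 for Zfp36l1. By the segment nearest the start they were 0.15 and 0.36. A control segment of 0.8 over the 3′ UTR of Zfp36 was overlapped after IL-4 by segments of 0.9 and 0.4.

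**Figure D3:**
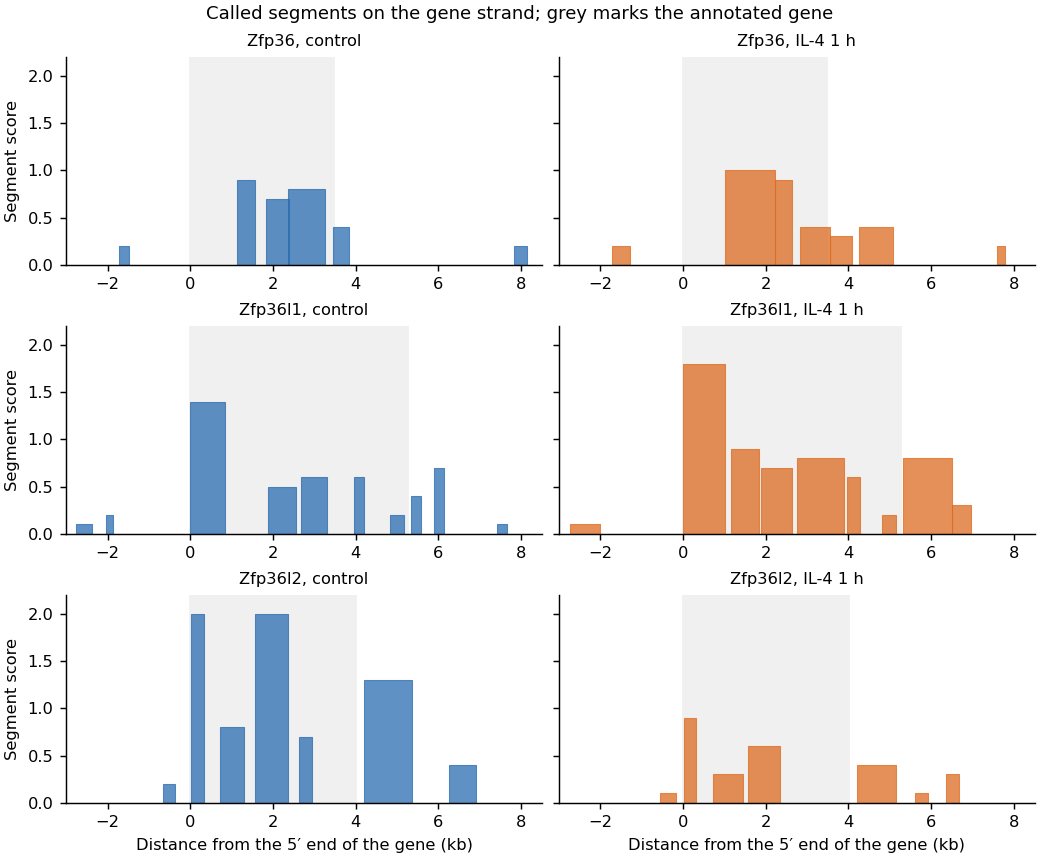
Called segments on the gene strand of Zfp36, Zfp36l1 and Zfp36l2 in control (blue, left) and after 1 hr of IL-4 (orange, right). The x axis is the distance from the 5′ end of the annotated gene in kb, the height of each bar is the segment score, its width is the length of the segment, and grey marks the annotated gene. The Zfp36l2 bars reach 2.0 in control and 0.9 after IL-4, while those of Zfp36l1 reach 1.4 and 1.8.

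Zfp609 had the highest ratio of the 185 Zfp genes with a value in both libraries. Its product works with cohesin loading and Integrator proteins at promoters. The gene spans chr9:65692391-65827564 on the minus strand (ENSMUSG00000040524.9), and its value was 0.8 in control and 3.9 after IL-4, a ratio of 2.66 (rounding range 2.56 to 2.78). The highest segment lay in intron 2 in both libraries, at an A-rich stretch in control and at a B1 SINE after IL-4, at overlapping positions. Without segments annotated to repeats the ratio was 1.81. By the segment nearest the start it was -1.0, because that segment lay at different positions in the 2 libraries. Zfp609 also gained the most segments of any Zfp gene, from 4 on its strand in control to 58 after IL-4, and the covered length went from 561 to 19631 bp. A gain of at least 54 segments was seen in 27 genes, Zfp609 among them, of the 3633 protein-coding genes with any gain (21924 annotated). Gene length was not taken into account. All 4 control segments had a counterpart after IL-4 with a higher score, 0.8 against 3.9, 0.5 against 1.4 and 0.4 against 1.6 in introns, and 0.2 against 0.7 in exon 2. The control segments began 32514 bp into the gene, whereas after IL-4 they ran from its 5′ end to its 3′ end, with a median score of 0.2 over the 58. Of the 58 segments 38 were named for Zfp609 and 20 for the neighbouring gene Oaz2, whose promoter is nearer to the last part of the gene.

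**Figure D4:**
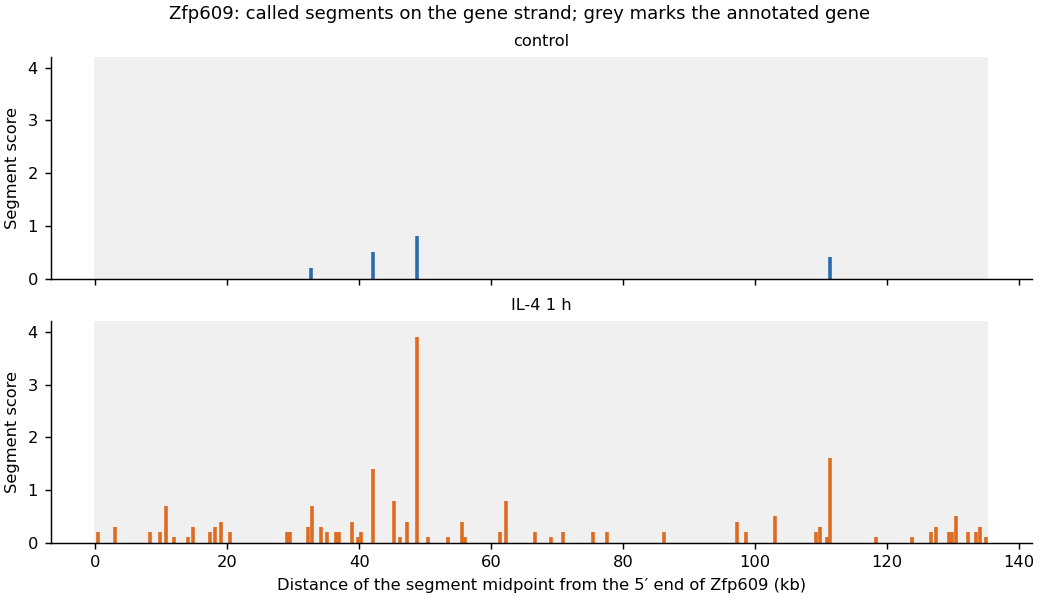
Called segments on the strand of Zfp609 in control (upper panel, blue) and after 1 hr of IL-4 (lower panel, orange). The x axis is the distance of the segment midpoint from the 5′ end of the gene in kb, the height of each line is the segment score, and grey marks the annotated gene. The 4 control segments have scores of 0.2 to 0.8, and after IL-4 58 segments are spread over the gene, 3 of them with a score of at least 1.

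Other increases came from low values at the start of the gene. Zfp275, on the X chromosome, had 1 segment at the first intron and CpG island, with 0.1 in control and 0.4 after IL-4 (ratio 2.38, rounding range 1.60 to 3.55). Zfp146 had 1 segment at its promoter, with 0.1 in control and 0.3 after IL-4 (1.96, 1.12 to 3.19). Zfp3, Zfp7 and Zfp948 each had 0.1 in control and 0.2 after IL-4 at the start of the gene (1.38, 0.38 to 2.70). These 5 genes were at least 2-fold higher by the highest score, the sum of the scores, the sum of score times length, the segment nearest the start and the highest score by overlap with the gene. Zfp275, Zfp146, Zfp7 and Zfp948 had 1 segment in each library. For them the definitions use the same scores, apart from the segment length, and are not separate support. For Zfp3, Zfp7 and Zfp948 the rounding range also includes less than 2-fold. Zfp595, Zfp324 and Zfp647 were also called, with 0.1 in control and 0.2 after IL-4, of which only Zfp595 had both segments on its own strand. The Zfp7 segments also overlap a second gene model, Gm49527, on the same strand. Zfp12 had 0.2 in control and 0.3 after IL-4 and Zfp740 0.4 and 0.6, both with a ratio of 0.96 just under the call. The Zfp12 segments lay in different parts of the gene, and the deciding Zfp740 segments lay in a B1 SINE of its second intron, while by the segment nearest the start its ratio was -2.0. Zfp740 had 5 segments in its name in control and 13 after IL-4.

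For the remaining increases the segments lay elsewhere. Those that decided Zfp69, 0.9 in control and 1.7 after IL-4 (ratio 1.30, rounding range 1.17 to 1.42), lay in introns of Smap2 on the Smap2 strand, and the number of segments named for Zfp69 was 7 in control and 21 after IL-4. At the start of Zfp69 itself the segment scored 0.4 and 0.6. For Zfp706, 0.3 and 0.5 (1.12, 0.74 to 1.52), they lay beside the promoter over the gene Gm26766. By the segment nearest the start the Zfp706 ratio was -0.58. The segments of Zfp219, 0.3 and 0.5 as well, lay over Gm49086, and by overlap with the gene its ratio was -0.20. Zfp692 had 0.2 in control within the gene and 0.6 after IL-4 at a leucine tRNA outside any gene model, and without segments annotated to repeats its ratio was -0.68. Zfp1 had 0.2 in the gene and 0.3 on the opposite strand.

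Decreases in the gene itself were led by Zfp251, with 0.6 in control and 0.1 after IL-4 (ratio -2.21, rounding range -3.32 to -1.50). The control segment of Zfp251 was 64 bp long and lay at the end of the gene, whereas the IL-4 segment lay in the first exon, so that the values come from different ends of it. By score times length the Zfp251 ratio was -0.20, which is not a call, and with segments of at least 100 bp it had no value in control. Zfp677 had 1.6 in control and 0.6 after IL-4 (-1.04, -1.21 to -0.88) from the same TTTG repeat in its first intron, but by the segment nearest the start its ratio was 1.58. Zfp593, whose product takes part in ribosome assembly, had 0.8 and 0.3 (-1.04, -1.39 to -0.72) at its start, from segments of 62 and 194 bp, and by score times length its ratio was 0.079. Zfp113, Zfp119b and Zfp426 each had 0.5 in control and 0.2 after IL-4 (-0.94, -1.50 to -0.47), just under the call, and by score times length Zfp119b had a ratio of 1.87 and Zfp426 of 0.65. Zfp367, Zfp455, Zfp516, Zfp580 and Zfp930 each had 0.3 in control and 0.1 after IL-4 (-1.21, -2.43 to -0.36) and were at least 2-fold lower by the same 5 definitions. Zfp512 in its gene and Zfp560 outside it had these values as well. For all 7 of these the rounding range includes less than 2-fold. Zfp455 had a single segment in each library, so its definitions use the same scores and are not separate support. Without segments annotated to repeats Zfp930 had a ratio of -0.68, the Zfp580 segments also overlap Ccdc106, and the control segment of Zfp367 lay outside any gene.

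For the other decreases the deciding segments lay in neighbours. Those of Zfp414, 1.6 in control and 0.3 after IL-4 (ratio -2.04, rounding range -2.34 to -1.77), lay in Myo1f, and Zfp414 itself had 2 segments of 0.2 in control and 0 after IL-4. Those of Zfp518a, 1.9 and 0.7 (-1.06, -1.21 to -0.92), lay in an intron of Blnk, while the segment at the start of Zfp518a scored 0.3 and 0.2. Zfp708, which binds a retroelement, had 0.5 in control from a 59 bp segment of the neighbouring cluster gene Rslcan18 and 0.1 after IL-4 in its own first intron, and within Zfp708 the highest score was 0.1 in both libraries. A further gene model, Gm28557, covers both places. By overlap with the gene the Zfp708 ratio was 0.39. Zfp825 had 0.6 and 0.2, both in other gene models, and a ratio of 1.22 by score times length.

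Because a single highest score can come from different places, segments in the same place were also compared, a choice made after the values were seen. Inside the Zfp genes 330 control segments in 149 genes overlapped an IL-4 segment on the same strand. With the highest overlapping IL-4 score, 68 of them scored higher after IL-4, 182 lower and 80 the same. Of 23948 such segments in all protein-coding genes, 5415 scored higher, 13153 lower and 5380 the same. Centred on all protein-coding genes, whose 23948 such segments had a median log2 ratio of -0.32, the Zfp median was -0.09 (quartiles -0.68 and 0.32, the same quartiles as all genes). At least 3 such segments were found in 32 Zfp genes. In 1 of these, Zfp609, all scored higher after IL-4, 3.12% (1.47% of 2379 protein-coding genes with at least 3), and in 6 all scored lower, 18.8% (12.1% of those genes).

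The 6 genes with lower scores throughout, before centring, were Zfp36l2, Zfp148, Zfp292, Zfp516, Zfp655 and Zfp704. The median centred ratios of Zfp36l2, Zfp292 and Zfp655 were -1.09, -0.34 and -0.42. Those of Zfp148, Zfp292 and Zfp655 lay within the quartiles of all such segments (-0.68 and 0.32). In Zfp516, a transcription factor known from brown fat, all 9 segments were lower (median centred ratio -1.26), and the segments on its strand numbered 17 in control and 10 after IL-4, over 5580 and 2993 bp. The highest score inside Zfp516, from segments that carry another name, was 1.2 in control and 0.4 after IL-4. In Zfp704 all 5 were lower (median -0.68), with 17 segments in control and 7 after IL-4. In Zfp148, which encodes the GC-box binding protein ZBP-89, all 6 were lower (median -0.39), with a highest score of 1.5 and 0.7, although the number of segments was 8 and 13. Zfp395 had 9 segments in control and 2 after IL-4. Counts rose in Zfp207 (5 and 12), Zfp217 (15 and 21) and Zfp362 (2 and 7). Of the 235 protein-coding Zfp genes 75 had more segments after IL-4, 49 fewer and 111 the same. Of all 21924 protein-coding genes 3633 had more, 2671 fewer and 15620 the same. Over all 235 protein-coding Zfp genes, 497 gene-strand segments in control and 589 after IL-4 gave a ratio of 1.19, the same as for all protein-coding genes. Their covered length, 123338 and 209029 bp, had a ratio of 1.69 (1.72 for all), and their mean score was 0.40 and 0.28 (0.58 and 0.39 for all).

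The highest Zfp values belonged to few genes. Whether the score was scaled to segment length is not stated in the sources used here, so the order ranks segments and not genes. Zfp263, a C2H2 transcription factor, had 7.4 in control and 6.1 after IL-4 (ratio 0.10, rounding range 0.08 to 0.12), both from a segment of about 200 bp in the 3′ UTR, while the segment at its start scored 0.6 and 0.9. That segment was 723 bp long in control and 2206 bp after IL-4. Zfp710 had 3.0 and 1.5 (-0.62, -0.69 to -0.55) in its first intron. It held 56 segments on its strand in control and 54 after IL-4, the most of any Zfp gene in control. Zfp207, which encodes the spindle assembly factor BuGZ, had 2.0 and 1.3 from a short segment in its last exon, and 1.4 and 1.1 at its start. Zfp119a, with 3.2 and 2.2, owed its value to a run of A on the opposite strand, and Zfp619, with 2.8 and 1.2, to a T-rich stretch in another gene model.

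Zfp genes found in 1 library only had low scores. In control only, the highest were Zfp61 at 0.5, Zfp182, Zfp51 and Zfp750 at 0.4 and Zfp180 at 0.3, and the Zfp750 segment lay in Tbcd. After IL-4 only, Zfp259 (now Zpr1) had 1.0 from a 36 bp segment in intron 9 and 0.2 at its first exon. The control library held a segment of 0.1 in the 3′ UTR of the same gene under the name of its neighbour Bud13. Zfp398 had 0.4 in its first exon, Zfp472 0.3, and Zfp13 and Zfp389 0.3 on the strand opposite to the gene. With a lowest recorded score step of 0.1 and unknown depth, a gene missing from a library cannot be told apart from one under its limit of detection.

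By known role, chromatin and promoter regulators formed the largest list. Of 24 listed genes 19 were found, and 18 had a ratio with a median of -0.07, with Zfp609 higher and Zfp516 lower. Of all genes 8.06% were higher and 8.62% lower, and with so few genes per list the calls are not a result about a role. Zfp143, a factor at promoters and loop anchors, had 0.7 in control and 0.5 after IL-4, Zfp384 1.2 and 0.5 (ratio -0.88), Zfp644 1.3 and 0.7 (-0.51), Zfp217 1.0 and 0.5 (-0.62) and Zfp746 1.4 and 1.1 (0.03). Zfp318 had 0.8 in both, a ratio of 0.38. The deciding segments of Zfp217 did not both lie in the gene on its strand. Inside Zfp217, 13 control segments overlapped an IL-4 segment, and 6 of them scored higher after IL-4, 2 lower and 5 the same. Zfp423, Zfp462, Zfp521, Zfp532 and Zfp827 were not found. Of the 12 RNA, ribosome and nuclear matrix proteins 11 were found, with a median of -0.04, Zfp706 higher and Zfp593 lower. Zfp830 had 0.9 in both libraries, Zfp326 0.9 and 0.7, and Zfp385a 1.1 and 0.8. The deciding segments of Zfp326 did not both lie in the gene on its strand.

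Smaller lists held few called genes, beside 8.06% higher and 8.62% lower of all genes. The ubiquitin and SUMO ligases had a median of 0.16, with Zfp91 at 0.6 in control and 0.8 after IL-4 (ratio 0.79, rounding range 0.58 to 1.01), Zfp598, which acts on stalled ribosomes, at 0.7 and 0.6, and Zfp451 at 0.4 and 0.3. Of the 5 silencers of imprints and retroelements 4 were found, with a median centred ratio of -0.49 that includes the Zfp708 value from Rslcan18. Zfp445 had 0.5 and 0.3, Zfp809, which silences proviruses, 0.4 and 0.2, and Zfp932 0.8 and 0.5, none past 2-fold, while Zfp708 is described above. Zfp57 was not found. Of the 4 germline and stem cell genes only Zfp541 was found, at 0.6 and 0.4, with segments outside its gene.

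Of 394 annotated protein-coding Zfp genes, 220 had a KRAB pattern with at least 3 C2H2 fingers, 136 had at least 3 fingers without KRAB and 38 had fewer than 3. A segment named for the gene was present in either library for 114 KRAB genes (51.8%), 94 of those without KRAB (69.1%) and 25 of those with fewer than 3 fingers (65.8%). By overlap with the gene on its strand the shares were 49.1%, 68.4% and 65.8%. The median values in control were 0.3, 0.4 and 0.7, and after IL-4 0.2, 0.3 and 0.55. Of 83 KRAB genes with a ratio 6 were higher and 7 lower (median -0.21), of 78 without KRAB 5 and 4 (median -0.04), and of 23 with fewer than 3 fingers 2 and 3 (median 0.06). Of all genes 8.06% were higher and 8.62% lower. The difference in detection between these classes has no test, since genes are not replicates.

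**Figure D5:**
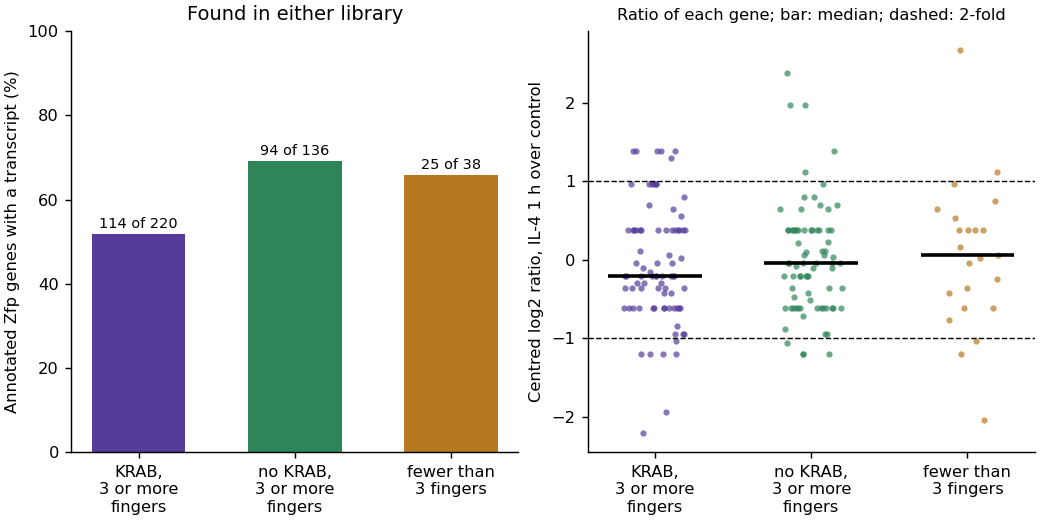
Left, share of annotated Zfp genes of each protein class (x axis) with a segment named for them in either library (y axis, %), with the counts above the bars. Right, centred log2 ratio of IL-4 over control for each Zfp gene with a ratio, spread sideways for display, with the median as a black bar and dashed lines at 2-fold. The shares are 51.8%, 69.1% and 65.8%, and the medians -0.21, -0.04 and 0.06.

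Detection also varied between genomic clusters, defined as at least 3 annotated Zfp genes with starts within 250000 bp of the next. The 31 clusters held 204 of the 394 genes, of which 114 (55.9%) were found, and outside them 119 of 190 (62.6%) were. All 6 genes of the chromosome 7 cluster at chr7:4915217-5053723, none of which had a KRAB pattern, were found in both libraries. In the chromosome 7 cluster at chr7:29768552-30169750, which ends with Zfp146, 12 of 15 were found. No gene was found by name in 7 clusters, among them the chromosome 11 cluster at chr11:50811086-51072799 with 6 genes and the chromosome 4 cluster at chr4:145510759-146198755 with 5 KRAB genes. In 2 of these 7, segments with other names overlapped 2 genes each. Cluster genes are close copies of each other, and how reads with several matches were counted is not given in the sources used here, so their values are uncertain. The largest cluster, at chr13:67038596-67827002, held 23 genes, all with a KRAB pattern, and 14 were found. Of its 11 genes with a ratio 1 was higher and 2 were lower (median -0.62), beside 8.06% and 8.62% of all genes. The lower ones were Zfp455 and Zfp708, and the Zfp708 gene itself held 0.1 in both libraries. In the cluster at chr17:21383748-22456689, 11 of 18 genes were found, and the median of 8 ratios was 0.60.

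The position of Zfp segments differed from that of all segments in the same way in both libraries. In control 102 of 642 Zfp segments lay at a promoter-TSS (15.9%, 95% Wilson interval 13.3 to 18.9%), against 10.8% of all segments, and after IL-4 111 of 718 (15.5%, 13.0 to 18.3%) against 10.2%. Introns held 49.7% and 51.1% of the Zfp segments (64.3% and 65.2% of all), and intergenic sequence 14.3% and 13.0% (7.39% and 6.81%). Within 1000 bp of a TSS lay 34.7% and 34.4% (22.4% and 21.6% of all). These intervals describe sampling of segments within a library only. Zfp segments had a median length of 221.5 and 316 bp in control and IL-4, close to the 227 and 312 bp of all segments. The longest was a 3042 bp segment of Zfp703 after IL-4. An opposite-strand segment beginning within 1000 bp in front of the gene was called 32 times in control (4.98%; 3.08% of all segments). After IL-4 it was called 37 times (5.15%; 3.24% of all). Of the control Zfp segments 35.2% overlapped no IL-4 segment and of the IL-4 ones 43.0% overlapped no control segment (37.4% and 48.1% of all).

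Across all promoter windows of the Zfp genes, from 250 bases before to 50 after the start, TTC-N4-GAA was found in 16 of 241 (6.64%; 6.95% of all 32851 windows) and TTC-N3-GAA in 37 (15.4%; 8.30% of all). Both motifs are their own reverse complement, and a window can hold both. The 14 Zfp genes with TTC-N4-GAA were Zfp68, Zfp91, Zfp239, Zfp414, Zfp429, Zfp607, Zfp652, Zfp661, Zfp708, Zfp715, Zfp790, Zfp809, Zfp933 and Zfp951. Of these 12 had a ratio, with 0 higher, 2 lower (Zfp414, with both segments in another gene, and Zfp708, with the control segment in another gene) and a median of 0.09. Of the 21 genes with TTC-N3-GAA and a ratio 2 were higher and 3 lower (median -0.04). Without TTC-N4-GAA 9 of 139 Zfp genes were higher and 8 lower, and without TTC-N3-GAA 7 and 7 of 130. Of all genes 8.06% were higher and 8.62% lower, so with so few genes no difference by motif is read from these counts. The Zfp windows had a median GC content of 56.7% and a ratio of observed to expected CpG of 0.70, against 52.7% and 0.38 for all windows.

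Genes that work with Zfp proteins were read from lists that hold no member. Of 22 genes of the KRAB corepressor pathway 21 were found, and 18 had a ratio with a median of -0.28. Of these 18, 3 were higher and 1 lower (8.06% and 8.62% of all genes). Trim28, the corepressor itself, had 0.3 in control and 0.6 after IL-4 (ratio 1.38, rounding range 1.03 to 1.76). Cbx1 and Cbx5 each had 0.1 and 0.2 (1.38, 0.38 to 2.70), a range that includes less than 2-fold. Chd4 had 0.8 and 0.3 (-1.04, -1.39 to -0.72). The methyltransferase gene Setdb1 had 2.1 and 1.1 (-0.55). All 27 genes of mRNA decay and its control were found, and of 23 with a ratio 1 was higher and 0 lower (median 0.06). The higher one was Zc3h12a, the CCCH endonuclease Regnase-1, with 0.4 in control and 0.9 after IL-4 (1.55, 1.30 to 1.82). Among neighbouring families, 1 of 25 Zbtb genes and 2 of 13 Zc3h genes were higher, 1 of 6 Zkscan genes and 1 of 2 Zfhx genes lower, and no Klf or Zscan gene was called of 9 and 5, beside 8.06% higher and 8.62% lower of all genes. One of the Zc3h genes is Zc3h12a, counted above.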

How the data were processed

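GRO-seq was measured in WT BMDMs left as control or treated with IL-4 for 1 hr, 1 library of pooled run-on duplicates per condition. The authors aligned reads to mm10 with BWA 0.7.10, used SAMtools 0.1.19, called transcripts with HOMER 4.2 (versions per the submitters' processing notes) and removed blacklisted regions. The deposited score of each transcript is rounded to 0.1. Its scaling is not stated and 1 score step cannot be turned into reads, so depth is unknown and no counting error can be given. Shares of transcripts carry 95% Wilson intervals.

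The Zfp genes and all gene lists were chosen with earlier results of these data known. Named were the 10 highest and 10 lowest ratios among Zfp genes at or above a library's median gene value, the 5 highest values per library, the 5 highest values found in 1 library only, genes called by all 5 value definitions, the CCCH genes and list genes. Tied ratios were ordered by score, then alphabetically. A few others were named after their values were seen. No test between conditions was made. The alternatives changed the gene value, the filter, the centring and the pseudocount. Proteins were translated from GENCODE M21 (GRCm38) transcripts because no protein table was used here. C2H2 fingers were counted by pattern, and a KRAB box was sought in the first 250 residues. Promoters came from RefSeq (GRCm38.p6). Segments were matched by at least 1 bp on the same strand. Calls were tested on simulated data with known changes and rounding but no noise between libraries, so the test gives no rate of false calls. Python 3.11.15, pandas 2.3.3, numpy 2.4.6, scipy 1.17.1 and matplotlib 3.10.9 were used.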

Additional observations from a re-analysis of the deposited data

How the results depend on the processing

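With 1 library per condition and rounded scores, the spread between cultures is unknown and values of 0.1 to 0.3 carry little precision. No paired analysis was possible because each condition has 1 library, and for the same reason none could be left out. Against 13 higher and 14 lower Zfp genes with a median of -0.11, the sum of the scores gave 24 lower, the sum of score times length 34 higher and 30 lower, and the segment nearest the start 64 lower with a median of -0.49. Without centring 52 were lower with a median of -0.49. Ratios by the segment nearest the start were also unshifted, because their own median over all genes was no change. A pseudocount of 0.1 with missing genes set to 0 gave 34 higher and 23 lower, a value of at least 0.5 in at least 1 library 6 higher and 4 lower, and the whole rounding range 5 and 3. Over all genes the shares higher and lower moved too, to 13.6% and 13.7% by the sum, 17.2% and 16.9% by score times length, 11.0% and 27.7% by the segment nearest the start, 14.9% and 11.2% with the pseudocount and 9.88% and 8.84% with the filter of 0.5, and to 24.3% lower without centring. Filters of 0.3 and 0.5 left 8 and 1 genes found in control only and 8 and 1 after IL-4 only, and the filter of 0.5 left 96 in both. Among called genes the sign reversed by score times length for Zfp593 (0.079) and Zfp825 (1.22), by the segment nearest the start for Zfp609 (-1.0), Zfp677 (1.58) and Zfp706 (-0.58), by overlap for Zfp219 (-0.20) and Zfp708 (0.39), without repeats for Zfp692 (-0.68), and with segments of at least 100 bp for Zfp692 (-0.74) and Zfp708 (0.26). Named genes short of the call also changed sign, namely Zfp1 (-0.13), Zfp207 (0.25) and Zfp426 (0.29) by the sum, Zfp119b (1.87) and Zfp426 (0.65) by score times length, Zfp619 (0.58) and Zfp740 (-2.0) by the segment nearest the start, Zfp619 (0.32) without repeats, Zfp207 (0.16) and Zfp263 (-0.016) with segments of at least 100 bp, and Zfp263 (-0.28) without centring. For Zfp609 the nearest segment lay 32514 bp into the gene in control and near the start after IL-4. The cause of the other reversals was not tested.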
